A study of Gallus gallus with 6 samples.

Results

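The H3K4 methylation signal of chicken primordial germ cells (PGC) was read as chromatin immunoprecipitation sequencing (ChIP-seq) signal over input within that population alone. It rested on 1 immunoprecipitated (IP) library and 1 input library, 2 of the 6 libraries of the series. Every region that carries PGC counts was taken from the deposited tables that hold PGC, 1 beside embryonic stem cells (ESC) and 1 beside spermatogonial stem cells (SSC), and kept 1 time. This gave 8558 distinct regions with 5639 closest genes. The authors had marked 3273 of them (38.2%) as a peak in PGC, termed called here. The other 5285 were listed because they were a peak in ESC or SSC, and were not called in PGC.

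Both libraries came from cells of the genital ridges of chicken embryos, and the labels name no breed, transgene or treatment. The protocol text gives 4.5 days of incubation, whereas the stage label reads 72 h (stage 27). Tissue was dissociated with trypsin and EDTA and cells were enriched by 40 min of differential culture in serum-containing medium. No sorting step and no purity are given, and neither the sex of the embryos nor the number pooled is stated. The antibody recognises di- and trimethylated H3K4, and the input received no antibody. With 1 library of each kind there was no replicate, so no p-value is given and every interval covers counting error of these libraries only.

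Methylation of lysine 4 of histone H3 is laid down by the SET1 and MLL (KMT2) enzyme complexes and removed by demethylases of the KDM1 and KDM5 families. The trimethylated form peaks at the starts of active and poised genes, and the dimethylated form extends into gene bodies and enhancers. Primordial germ cells are the founders of sperm and eggs. In birds they travel through the blood to the genital ridges, where they lie among somatic gonadal cells, mesenchyme, endothelium and blood.

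The PGC signal was shallow. A called region held a median of 16 IP reads (quartiles 14 to 18) and 6 input reads (quartiles 4 to 8), from libraries of 20.24 M (megareads) for the IP and 24.98 M for the input. IP over input, written as fold, is the deposited ratio of RPM values (reads per megaread of the library), in which 1 read is added to each count. Its median over called regions was 3.00 (quartiles 2.47 to 3.70). The narrow spread of depth is visible in the counts themselves, since 80.6% of called regions held 12 to 20 IP reads and 25.6% were exactly 200 bp wide, the smallest width listed. Their median width was 223 bp.

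Regions not called in PGC held a median of 8 IP reads and 6 input reads, and their median fold was 1.48 (quartiles 1.23 to 1.94). No listed region had a fold at or below 1, so a fold above 1 is a property of the list and is not counted as enrichment. Of all listed regions, 4294 (50.2%) reached 2-fold and 731 (8.54%) reached 4-fold. The 95% counting interval of the ratio, taken from the raw counts, began above 1 in 2835 regions (33.1%). Among called regions these counts were 3069 at 2-fold, 580 at 4-fold and 2535 with an interval above 1. Among regions not called they were 1225, 151 and 300. The caller chose its peaks on these same libraries, so the difference between called and not called regions describes that choice.

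Pooling the reads gave 3.11-fold (95% counting interval 3.06 to 3.16) for called regions and 1.53-fold (1.51 to 1.55) for the rest. Summed over all listed regions, the widths came to 2893 kb and the reads to 0.538% of the IP library and 0.261% of the input library. Of these regions, 546 overlap or touch another, in 254 sets, and merging would leave 8266. Bases and reads shared by such regions are counted more than 1 time in these sums and in the pooled folds. The 1066 regions that appeared in both tables, each with identical PGC counts, had a median fold of 2.93, against 3.00 for the 2207 called regions of 1 table only.

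**Figure D1:**
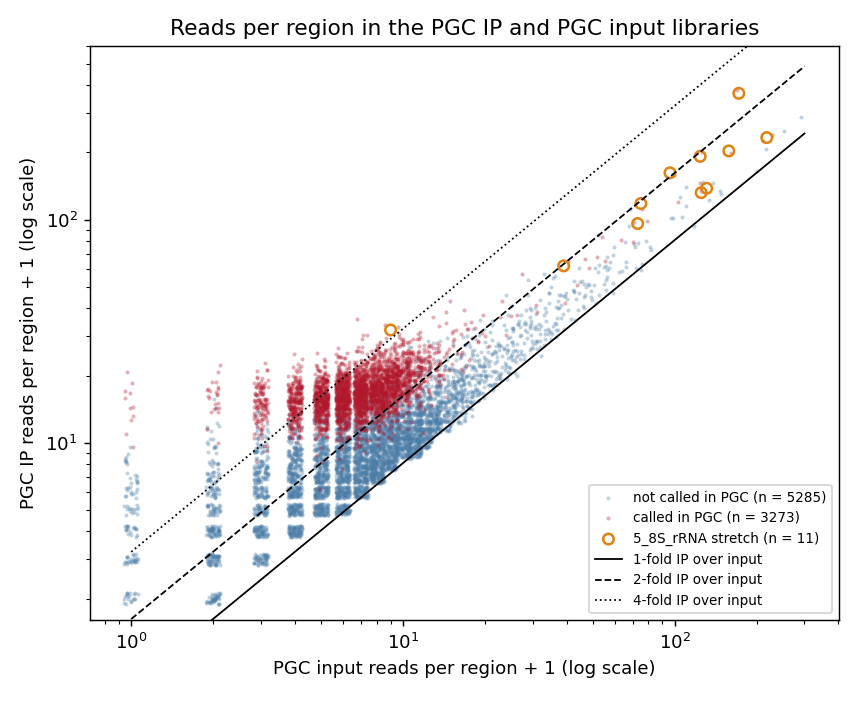
Reads per region plus 1 in the PGC input (x axis, log scale) and the PGC IP (y axis, log scale), 1 point per region with slight horizontal and vertical jitter; red points were called in PGC, blue points were not, orange rings mark the 5_8S_rRNA stretch, and lines mark 1-, 2- and 4-fold IP over input. Called regions form a band around 16 IP reads, and no region lies at or below the 1-fold line apart from the jitter. Regions of 0 IP reads fall below the plotted range.

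The authors' cell type label could be checked against marker genes only in part. Of 12 germ cell markers, TFAP2C and CXCR4 had a listed region and 0 had a called one, with 73 IP and 63 input reads in all. DAZL, DDX4 (the germ cell helicase also called VASA), NANOS3, PRDM1, PRDM14, KIT, NANOG and POU5F3 had no listed region under these symbols. Of 9 somatic gonad markers, 6 were listed with 16 regions, 1 of them called, and 326 IP and 236 input reads. Of 5 mesenchyme markers, COL1A2 and PDGFRA were listed with 5 regions, 2 of them called, which overlap at COL1A2, and 83 IP and 35 input reads. For comparison, 36.4% of the regions of all genes with a symbol were called, and 5.21% of all listed regions within 1 kb of a start. The read sums are raw, from libraries of 20.24 M for the IP and 24.98 M for the input. All markers of mesonephros (3 genes), blood (5) and endothelium (4) were without a listed region. The tables list only regions that were a peak in at least 1 population with fold above 1 in both, and 40.4% of closest genes carry no symbol, so a gene without a listed region is not shown to lack the mark. In such bulk chromatin a mark present in few cells and a weak mark in many cannot be told apart, and the part of other cell types of the ridge in the signal was not tested.

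The called regions listed here lay mostly away from gene starts. The list holds only regions with a fold above 1 in both populations of a pair. Other PGC peaks can be missing from it, so the shares describe the listed regions. Of the 3273, 125 (3.82%, 95% interval 3.19 to 4.53) were no more than 1 kb from the nearest annotated start of transcription, 1046 between 1 and 10 kb, 1232 between 10 and 50 kb, 452 between 50 and 100 kb and 418 beyond 100 kb. The median distance was 18778 bp, against 1477 bp for regions not called. The share of listed regions that were called rose with each distance class, from 5.21% (4.36 to 6.18) within 1 kb to 38.9% at 1 to 10 kb, 56.4% at 10 to 50 kb, 64.8% at 50 to 100 kb and 71.2% (67.4 to 74.8) beyond 100 kb. Regions not called entered through the other populations' peaks, so this share depends on where those peaks lie as well.

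The strength of called regions changed little with distance. The median fold was 2.93 within 1 kb and at 1 to 10 kb, 2.96 at 10 to 50 kb, 3.16 at 50 to 100 kb and 3.00 beyond. Pooled reads gave 2.51-fold (2.35 to 2.68) within 1 kb and 3.36-fold (3.22 to 3.52) at 50 to 100 kb, with intervals that did not overlap. A few regions of many input reads weigh on the first of these pooled values, such as 233 IP and 206 input reads at ENSGALG00000026325 on an unplaced scaffold. Regions not called showed the reverse order, with a median fold of 1.54 within 1 kb (pooled 1.62, 1.58 to 1.65) and 1.23 beyond 100 kb (pooled 1.37, 1.28 to 1.47).

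**Figure D2:**
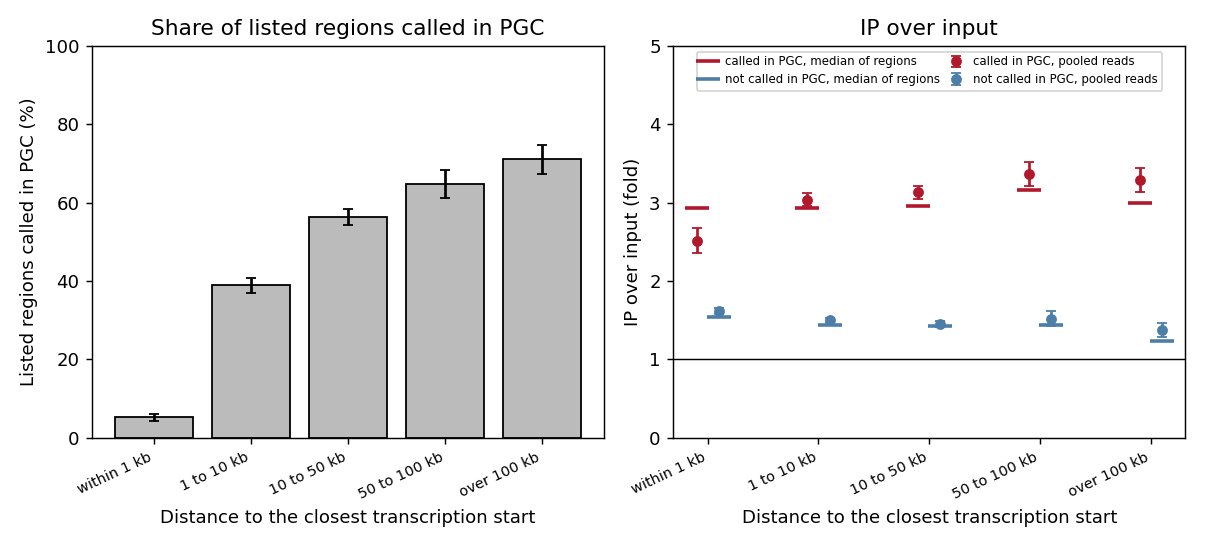
Left, percentage of listed regions called in PGC by distance to the closest transcription start, with exact 95% intervals; right, IP over input of called (red) and not called (blue) regions, as pooled reads with 95% counting intervals (circles) and as the median over regions (dashes). The share called goes from 5.21% within 1 kb to 71.2% beyond 100 kb, while the median fold of called regions stays between 2.93 and 3.16.

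By annotation, 1792 called regions lay outside genes, 954 in an intron after the first, 311 in a first intron, 126 in a later exon, 59 in a UTR and 10 in a first exon. The remaining 21 lay in the flank of a gene. Of all listed regions in later introns 51.7% (49.3 to 54.0) were called, compared with 15.9% (14.3 to 17.6) in first introns and 6.10% (2.96 to 10.9) in first exons. The median fold of the called regions was 3.00 in later introns, 2.88 in first introns and 2.96 outside genes. These medians are given as a description, with no test of the difference between classes.

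The chromosome classes had similar folds. Called regions numbered 1759 on chromosomes 1 to 5, 525 on chromosomes 6 to 10, 893 on the small chromosomes 11 to 28, 61 on the sex chromosome Z and 35 on linkage groups and unplaced scaffolds. Their median folds were 2.96, 2.93, 3.02, 3.21 and 2.96 in that order. On the Z chromosome 18.4% (14.4 to 23.0) of the 332 listed regions were called, and on chromosomes 1 to 5 it was 41.1% (39.6 to 42.6). Chromosome Z is present as a pair in male birds and as 1 copy in females, and the sex of the embryos is not stated. The called Z regions held pooled reads of 909 IP and 320 input, 3.51-fold (3.08 to 3.995).

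Ranking by fold and ranking by IP signal named different regions. Of the 100 regions with the highest fold, 65 were called, and their median was 15 IP reads over 1 input read. The 100 regions with the highest IP RPM had a median of 62.5 IP and 57.5 input reads and a median fold of 1.37, and 23 were called. These rankings shared 0 regions. Ranking by the lower end of the counting interval, which takes depth into account, placed 97 called regions among its top 100 and shared 68 of them with the fold ranking and 1 with the IP RPM ranking.

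The highest folds stood on inputs of 0 reads, where the deposited fold depends on the 1 read added. All coordinates below are those of the deposited tables on the build galGal4, and whether they count from 0 or 1 is not stated. ARHGAP15, a GTPase-activating protein for Rac, led both the fold ranking and the lower-end ranking. Its region in a later intron (chromosome 7, 32456806 to 32457083, 244965 bp from the start) held 20 IP reads and 0 input reads. The deposited fold was 25.9. With the input at the floor of 3 reads it was 8.23-fold. The interval of the raw counts, with the input at 0, began at 6.09. It is not the interval of the fold at the floor.

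The next regions were of the same kind. A region 224589 bp from the microRNA gga-mir-1632 (chromosome 1, 138962640 to 138962840) held 17 IP and 0 input reads. At the same floor this was 6.99-fold, and the interval of the raw counts began at 5.09. Lhx5, a LIM homeobox transcription factor of the forebrain, had 16 IP and 0 input reads at 1222 bp from its start (chromosome 15, 12567056 to 12567301). This was 6.58-fold at the floor (raw-count interval from 4.76). The Lhx5 region was the only one of the 8 highest folds to lie under 2 kb from a start. PFDN1, a subunit of the chaperone prefoldin, and MED12L, a relative of a Mediator subunit, each had 15 IP and 0 input reads. Both were 6.17-fold at the floor (raw-count interval from 4.43). The sialyltransferase gene ST6GALNAC2 and MYOM2, which encodes a protein of the sarcomeric M-band, had 14 and 0 (5.76-fold at the floor, raw-count interval from 4.09). TBC1D5, a Rab regulator, had 13 and 0 (5.35-fold at the floor, raw-count interval from 3.76).

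ISX, an intestinal homeobox gene, entered the lower-end ranking with 21 IP reads and 1 input read at 22634 bp from its start. Its fold was 13.6 and its interval ran from 4.17 to 1072. In all, 123 listed regions had an input of 0 reads, 11 of them called, so the inputs of 0 were more often at regions not called (2.12%, against 0.336% of called regions).

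The highest IP signal came with high input. The region with the most IP reads lay near ENSGALG00000025656, a gene without a symbol (chromosome 1, 100380619 to 100381625), and held 367 IP and 171 input reads, 2.64-fold (2.20 to 3.20). The next were regions assigned to ENSGALG00000004857 with 297 IP and 299 input reads (1.23-fold, 1.04 to 1.44) and to ENSGALG00000003196 with 255 and 253 (1.24-fold, 1.04 to 1.49). Among regions with a symbol, PLLP, a myelin and epithelial membrane protein, had 129 IP and 138 input reads (1.15-fold, 0.90 to 1.48). JPT2 had 125 and 127 (1.22-fold, 0.94 to 1.57) and OSER1 had 104 and 102 (1.26-fold, 0.95 to 1.67). The intervals of these last 3 include 1, and with the libraries scaled to the regions not called their folds were 0.78, 0.82 and 0.85. The regions used for this scaling were peaks in ESC or SSC and all had a PGC fold above 1. Their median is thus not a background level, and a scaled fold, here or below, does not measure depletion or absence of signal. Another JPT2 region nearby, which was called, held 95 and 79 (1.48-fold, 1.09 to 2.03).

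Over the whole list, 68 regions held 50 or more input reads, 16 of them called, with a median fold of 1.30. Across the 8558 regions, IP and input reads had a Spearman rank correlation of 0.51 (0.47 over called regions and 0.79 over those not called). Over called regions, fold had a rank correlation of -0.78 with input reads, by which it is divided, and of 0.12 with IP RPM. The order of called regions by fold thus followed their input reads more than their IP signal. The regions share the same pair of libraries, so these correlations describe those libraries.

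A stretch of chromosome 1 that begins at a gene labelled 5_8S_rRNA, the small RNA of the large ribosomal subunit whose genes are repeated in many copies, stood apart in both libraries. It was chosen after its values were seen. Its 11 regions, 2 of which overlap, were all called and held 31 to 367 IP and 8 to 217 input reads, with folds from 1.30 to 4.39. Together they had 1725 IP and 1209 input reads, 1.76-fold (1.64 to 1.90). Per length, the IP signal was 21.4 RPM per kb and the input signal 12.1, compared with 3.35 and 1.05 over the other called regions. Of the 3 regions assigned to 5_8S_rRNA itself, the one with the most reads (chromosome 1, 100354373 to 100354754) had 202 IP and 157 input reads (1.59-fold, 1.28 to 1.97). At the lowest input of the stretch, 8 reads at ENSGALG00000026592, the IP held 31 reads, 4.39-fold (2.15 to 12.04).

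**Figure D3:**
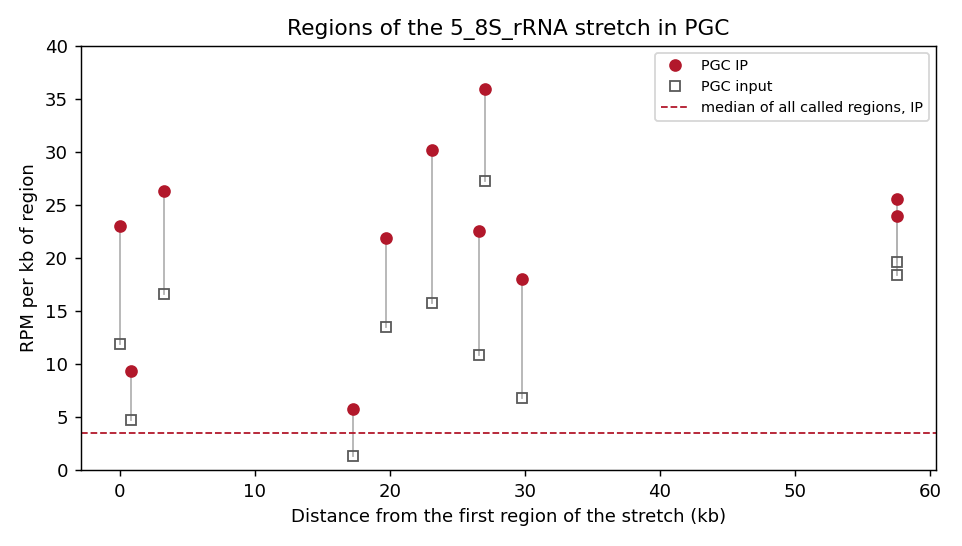
IP (red circles) and input (open squares) signal in RPM per kb of region along the 11 regions of the 5_8S_rRNA stretch, against distance from its first region in kb; grey lines join the values of a region and the dashed line is the median IP signal of all called regions, 3.54 RPM per kb. Both libraries exceed that line at 10 of the 11 regions, and at the region of lowest input (31 IP and 8 input reads) the IP does.

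Among regions with a symbol and a width of at least 400 bp, the 8 with the highest IP RPM per kb are given here. No limit was set on their input. PALD1, which encodes the phosphatase-like protein paladin, had 32 IP and 9 input reads (4.07-fold, 2.05 to 10.4) at 17091 bp from its start. ATP6V0D1, a subunit of the vacuolar proton pump, had 29 and 10 (3.37-fold, 1.70 to 8.23) in its first intron, 1023 bp from the start. A region 218472 bp from the element labelled uc_338 had 27 and 6 (4.94-fold, 2.25 to 16.4). The methyltransferase gene METTL4, the ubiquitin ligase gene RNF182, PTDSS2, an enzyme of phosphatidylserine synthesis, and the microRNA gga-mir-1752 had 26 to 34 IP and 10 to 15 input reads, with folds between 2.70 and 3.25. The JPT2 region of 125 IP and 127 input reads led this ranking at 9.79 RPM per kb, with the low fold given above. It was the 1 region of the 8 that was not called.

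**Figure D4:**
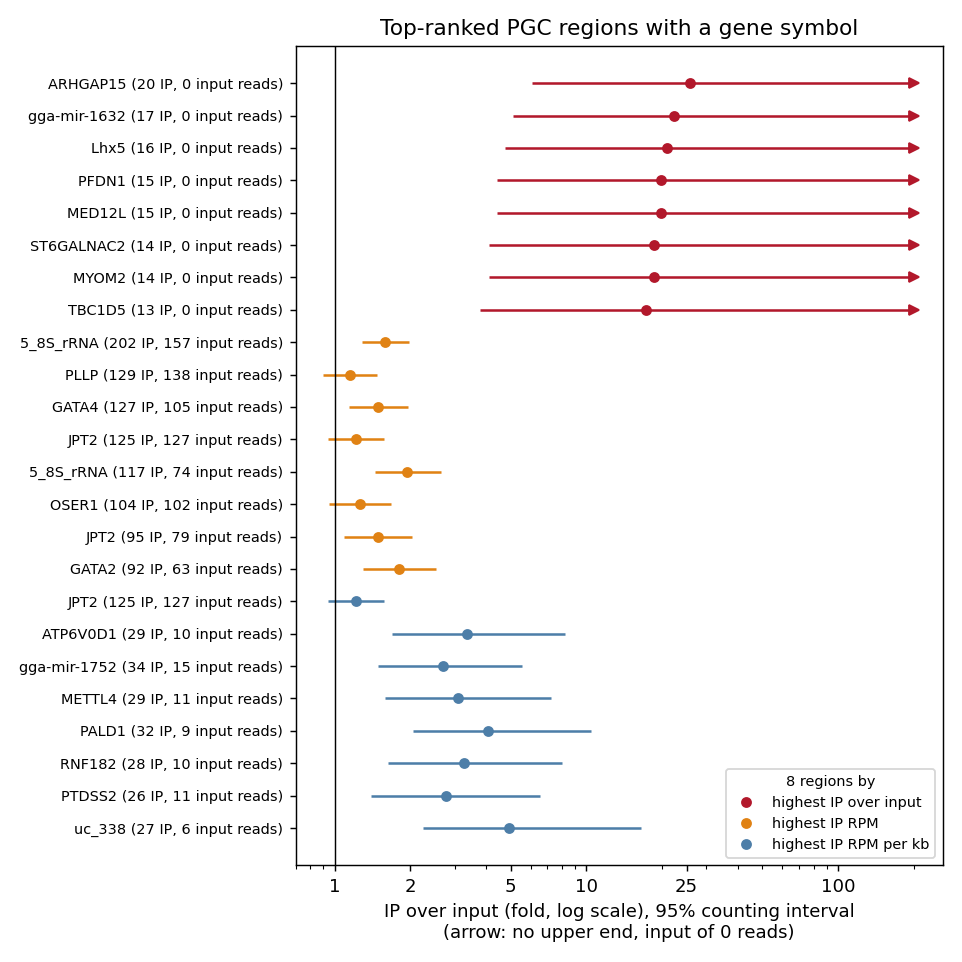
IP over input (x axis, log scale) with the 95% counting interval for the 8 regions with a gene symbol that rank highest by fold (red), by IP RPM (orange) and by IP RPM per kb among regions of at least 400 bp (blue), with reads in brackets; arrows mark intervals with no upper end, where the input was 0. The red intervals are wide and begin between 3.76 and 6.09, and 3 of the orange ones, PLLP, JPT2 (the region of 125 IP reads) and OSER1, include 1.

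Called regions were spread over many genes. Of the 5639 closest genes, 2625 had a called region, 2117 of them 1 only, while 19 genes had 4, 6 had 5 and 2 had 6. ENSGALG00000016103 on chromosome 4 and TSHZ1, a zinc finger transcription factor of the teashirt family, were those 2, with all 6 of their listed regions called. The TSHZ1 regions held 16, 12, 15, 13, 21 and 15 IP reads over 7, 5, 5, 4, 8 and 7 input reads, at 10362 to 61804 bp from the start. Their folds lay close together, from 2.47 to 3.46, and their pooled reads gave 3.15-fold (2.12 to 4.78). TSHZ1, CDH2 and the genes below up to TNRC6C were picked for having the most called regions. Most of their listed regions lie more than 10 kb from the start. Over all genes with a symbol, 56.3% of regions were called at 10 to 50 kb. The share was 63.9% at 50 to 100 kb and 69.9% beyond 100 kb.

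CDH2, which encodes N-cadherin, an adhesion molecule of neural and mesodermal cells, had 5 called regions among 9 listed over 571.3 kb. The called ones held 14 to 25 IP and 3 to 8 input reads. Its region at 124 bp from the start held 3 IP and 2 input reads and was not called. The pooled fold of the 9 regions was 2.83 (2.02 to 4.02).

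The noncoding RNA gene LINC00901 had 5 called regions of 14 to 17 IP and 4 to 7 input reads between 33366 and 353962 bp away, 4.01-fold pooled (2.51 to 6.63). PCDH12, a protocadherin of endothelial cells in mammals, had 4 called regions (60 IP and 17 input reads in all, 4.36-fold, 2.51 to 7.96). KCNJ2, an inward rectifier potassium channel, had 4 regions 152329 to 210787 bp away (67 and 22 reads, 3.76-fold, 2.29 to 6.39). The atypical cadherin FAT3 had 4 called of 5 (72 and 33 reads, 2.69-fold, 1.76 to 4.199). The closest start was the criterion for assigning each of these regions, and which genes the distant regions act on was not tested.

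DYNLRB2, a dynein light chain, had 4 called of 6 regions (77 and 32 reads, 2.97-fold, 1.94 to 4.64). TNRC6C, a protein of microRNA silencing, had 4 called of 8 (168 and 111 reads, 1.87-fold, 1.46 to 2.40). The TNRC6C sum includes a broad region that was not called, with 74 IP and 68 input reads, 1.34-fold (0.95 to 1.90). Within that region lies a narrow one, also not called, of 18 and 4 (4.69-fold, 1.83 to 22.6), whose reads are counted again in the sum. The 4 called regions around it held 12 to 16 IP reads over 2 to 6 input reads.

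The 125 called regions within 1 kb of a start had median counts of 16 (IP) and 6 (input), and 103 had an interval above 1. The 7 described here were picked after their values were seen, from those with the highest lower end of the interval. KDM1B, a histone H3K4 demethylase that mouse oocytes need to set up imprints, had 19 IP and 2 input reads in its first intron, 537 bp from the start (chromosome 2, 60455421 to 60455675), 8.23-fold (2.83 to 104). CHP1, a calcium-binding partner of sodium-proton exchangers, had 21 and 3 (6.79-fold, 2.58 to 45.2) within a wider called region of 35 and 19 (2.22-fold, 1.27 to 4.21), so its reads enter both. The matrix metalloproteinase MMP11 had 26 and 6 (4.76-fold, 2.15 to 15.9).

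SYCP1, a structural protein of the meiotic synaptonemal complex, had a called region of 19 IP and 4 input reads at 635 bp from its start (chromosome 26, 3892657 to 3892871), 4.94-fold (1.95 to 23.7). This region lay upstream of that start. Its position is classed as an intron after the first, and the gene or transcript of that intron is not given here. BPIFB2 and C4orf48 each had 14 IP and 2 input reads (6.17-fold, 1.98 to 78.3). The zinc finger gene ZNF821 had 26 and 8 at 47 bp from its start (3.70-fold, 1.76 to 10.2).

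Most regions near starts were not called: 2273 of 2398, with a median of 7 IP and 5 input reads. Of these, 160 had an interval above 1. CITED2, a transcriptional coregulator of early development, had a region of 14 IP reads and 1 input read at 149 bp from its start (9.26-fold, 2.63 to 731) that overlaps a broad region of 51 IP and 27 input reads (2.29-fold, 1.43 to 3.87), so the 2 can share reads. TSC22D1, a leucine zipper regulator, had 16 and 2 (6.99-fold, 2.32 to 88.5), in a region that overlaps a wider one of 21 and 11 (2.26-fold, 1.09 to 5.41). NOP58, a core protein of small nucleolar ribonucleoproteins, had 14 and 3 (4.63-fold, 1.61 to 31.3), and ORC1, a subunit of the origin recognition complex, 28 and 12 (2.75-fold, 1.42 to 6.22). These 4 genes too were picked after their values were seen.

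Of the broad regions of 1 kb or more, 7 were called and 253 were not. Those not called had a median of 26 IP and 24 input reads and a median fold of 1.39 (pooled 1.41, 1.36 to 1.46), and 46 had an interval above 1. TFAP2A, a transcription factor of ectoderm and neural crest, had a broad called region of 44 IP and 21 input reads at 2904 bp from its start (chromosome 2, 63371719 to 63373516), 2.52-fold (1.51 to 4.58). A narrow called region within it held 15 and 5 (3.29-fold, 1.28 to 13.02), and a broad region nearer the start, which was not called, 32 and 19 (2.04-fold, 1.14 to 3.88). The intervals of both broad TFAP2A regions began above 1, in a list that holds only regions with a fold above 1.

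The GATA genes with wide regions held many reads in these regions, but few per length. The IP signal of the wide region was 1.253 RPM per kb at GATA2 and 1.396 at GATA4. Both were below the median over all listed regions, 2.088 RPM per kb. GATA2, a regulator of blood and urogenital development, had 92 IP and 63 input reads over a region of 3668 bp (chromosome 12, 9190580 to 9194248), 1.79-fold (1.29 to 2.52). Its called region, 18267 bp from the start, held 16 and 6 (3.00-fold, 1.22 to 10.3). GATA4, which the somatic cells of the early genital ridge need, had 127 IP and 105 input reads over the widest listed region of 4532 bp (chromosome 3, 106954504 to 106959036), 1.49-fold (1.14 to 1.95). With the libraries scaled to the regions not called this GATA4 value was 1.01 and the GATA2 value 1.21. The 1 called GATA4 region of 6 lay 33060 bp from the start and held 27 and 9 (3.46-fold, 1.69 to 8.95).

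Germ cell and stem cell genes that were listed ranged from input level to called regions above the called median. TFAP2C, which helps to specify germ cells in mammals, had 63 IP and 52 input reads, 1.49-fold (1.02 to 2.20). Its region of 3433 bp (chromosome 20, 12288721 to 12292154) was centred in the first intron, 852 bp from the start. This region was not called, and its fold was near the median of regions not called, 1.48. CXCR4, the chemokine receptor that guides migrating germ cells, had 10 and 11 at 47214 bp (1.13-fold, 0.43 to 2.91). The Tudor domain gene TDRD7 had 6 IP reads and 1 input read (4.32-fold, 0.90 to 341), and its relative TDRD3 10 and 4 (2.72-fold, 0.89 to 13.5). DMC1, the meiotic recombinase, had 11 and 9 (1.48-fold, 0.57 to 4.12). The intervals of CXCR4, TDRD7, TDRD3 and DMC1 include 1, so a difference from input was not detectable at this depth.

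TDRD15, another Tudor domain gene, had 3 called regions, all 66693 to 137959 bp away. They held 13, 22 and 14 IP reads over 4, 4 and 6 input reads, and the pooled fold was 4.32 (2.35 to 8.47). MYCN, a proto-oncogene of stem and progenitor cells, had 67 and 61 reads near its start (1.35-fold, 0.94 to 1.95, or 0.91 with the libraries scaled to the regions not called). Its called region 183081 bp away held 16 and 8 (2.33-fold, 0.997 to 6.66). Among pluripotency factors, PRDM15 had a called region of 19 and 6 (3.53-fold, 1.501 to 11.96) in an intron and TFCP2L1 one of 22 and 8 (3.15-fold, 1.46 to 8.82) 54262 bp away, whereas KLF5 had 15 and 18 (1.04-fold, 0.48 to 2.16) in its first intron.

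For 16 gene lists, each gene was given the fold of its region nearest the start. Over all 3315 genes with a symbol, this region reached 2-fold in 1612 (48.6%), had an interval above 1 in 983 (29.7%) and had a median fold of 1.94, and 1474 genes (44.5%) had a called region. The germ cell and piRNA list had 7 listed members of 31, of which 3 reached 2-fold, with a median of 1.65. Of its 11 regions 4 were called, in 2 genes, and 3 of the 4 were those of TDRD15. Over all genes with a symbol 36.4% of regions were called. The pluripotency list had 6 listed of 22, with 3 at 2-fold and a median of 1.91. The somatic gonad list had 12 of 25, with 4 at 2-fold and a median of 1.66. Among its members WT1, NR5A1 and LHX9, regulators of gonad formation, had 7 IP and 5 input, 7 and 5, and 14 and 10 reads, and DMRT1, the Z-linked testis determinant, had 8 and 3 (2.78-fold, 0.79 to 19.3). NR2F2, a nuclear receptor of interstitial cells, had 49 and 36 (1.67-fold, 1.07 to 2.66).

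The housekeeping list was mostly read at gene starts. Of 15 listed members, 13 had a region within 1 kb of the start, 3 reached 2-fold and 0 had their nearest region called, with a median of 1.42. Over all listed regions within 1 kb of a start 5.21% were called and those not called had a median of 1.54, so these values are close to those of starts in general. All 28 regions of the list gave 1.55-fold pooled (1.31 to 1.83), and 4 were called, 1835 bp from PSMB2 and 21077 to 131227 bp from PSMD7, both proteasome subunits. ACTB held 14 IP and 12 input reads (1.42-fold, 0.62 to 3.41), NPM1 20 and 24 (1.04-fold, 0.54 to 1.94), RPS14 14 and 16 (1.09-fold, 0.49 to 2.36) and the ribosomal protein gene RPS3 21 and 12 (2.09-fold, 1.01 to 4.82). RPS3 was the 1 member whose interval began above 1.

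Synaptic adhesion and neuronal long genes had the most called regions of any list. This was also the largest list, by genes and by regions, and it was chosen with earlier results of these data known. Of 29 listed members of 78, 20 reached 2-fold (69.0%), 17 had an interval above 1 and 24 had a called region. Over all genes with a symbol these shares were 48.6%, 29.7% and 44.5%. The list had a median fold of 2.61 and a median distance of 25887 bp. Of its 56 regions 39 were called, where over all genes with a symbol 36.4% of regions were. The list's regions lie far from starts, where more regions were called in general. At 10 to 50 kb 9 of 14 were called (56.3% over all genes with a symbol), at 50 to 100 kb 8 of 11 (63.9%) and beyond 100 kb 17 of 22 (69.9%), while within 1 kb 0 of 4 were (4.36%). The 5 regions at 1 to 10 kb were all called, beside 36.4% over all genes with a symbol. CDH4, R-cadherin, had 20 IP and 5 input reads in its first intron (4.32-fold, 1.798 to 16.8). NCAM2, a neural cell adhesion molecule, had 19 and 6 (3.53-fold, 1.501 to 11.96) and the axon guidance receptor ROBO2 21 and 8 (3.02-fold, 1.38 to 8.46). The 4 members whose nearest region lay within 1 kb, CDH2, SLIT3, CDH7 and LRP1B, had folds of 1.52 to 1.85 and were not called there. Their pooled fold over all 56 regions was 2.82 (2.48 to 3.22).

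**Figure D5:**
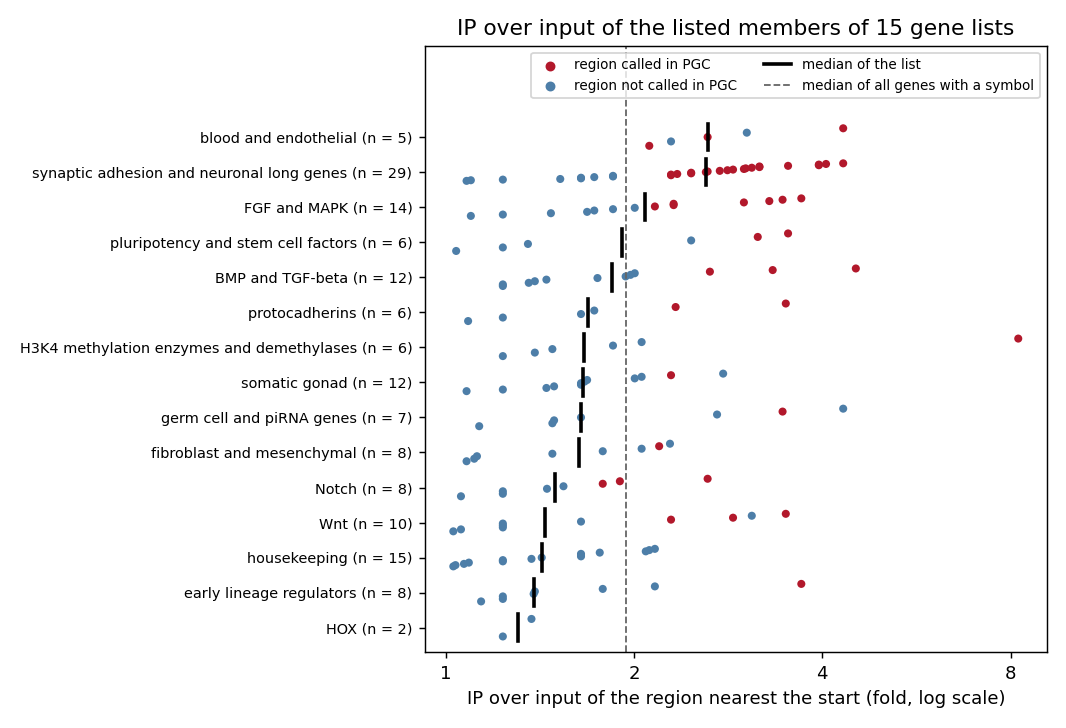
IP over input of the region nearest the start (x axis, log scale) for each listed member of 15 gene lists, red where that region was called in PGC and blue where it was not; black bars are list medians and the dashed line is the median of all 3315 genes with a symbol, 1.94. Medians run from 1.30 for the 2 HOX genes to 2.62 for the 5 blood and endothelial genes, and all 15 housekeeping members are blue.

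By the region nearest the start, the signalling lists had medians from 1.44 (Wnt) to 2.08 (FGF and MAPK), beside 1.94 over all genes with a symbol. Over all their regions the lists lay closer, with overlapping intervals. Pooled folds were 1.96 (1.62 to 2.38) for Wnt and 2.05 (1.75 to 2.42) for FGF and MAPK. They were 1.95 (1.497 to 2.55) for Notch and 1.94 (1.65 to 2.29) for BMP and TGF-beta. Regions called were 11 of 23 for Wnt and 12 of 31 for FGF and MAPK. For Notch they were 6 of 12 and for BMP and TGF-beta 8 of 31, beside 36.4% over all genes with a symbol. FGF and MAPK genes had 14 members listed, 8 of them at 2-fold, with a median of 2.08. The growth factor genes Fgf16 (15 IP and 5 input reads), FGF14 (13 and 4) and FGF9 (16 and 6) were called at 29616 to 184020 bp, while the receptors FGFR4 (14 and 10), FGFR3 (36 and 30) and FGFR2 (5 and 3) had regions near their starts that were not called. BMP and TGF-beta genes had 12 listed, 4 at 2-fold, with a median of 1.84. BMP4, a ligand that induces mammalian germ cells, had a called region of 26 and 9 at 33341 bp (3.33-fold, 1.62 to 8.65), BMP10 one of 10 and 2 (4.53-fold, 1.32 to 57.9), and the receptor BMPR1B one of 14 and 6 (2.64-fold, 1.04 to 9.14). The inhibitory SMAD6 had 17 and 15 (1.39-fold, 0.66 to 3.01).

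Of all genes with a symbol, 48.6% reached 2-fold in the region nearest the start and 44.5% had a called region. Of 10 listed Wnt genes 4 reached 2-fold in the region nearest the start, with a median of 1.44, and 7 had a called region. The ligand WNT11 had 16 and 5 at 80476 bp (3.50-fold, 1.38 to 13.8) and the effector TCF7 13 and 5 (2.88-fold, 1.07 to 11.5), both called, while TCF7L2 had 17 and 20 at its start (1.06-fold, 0.52 to 2.11). Of 8 Notch genes 4 had a called region, and 1 reached 2-fold in the region nearest the start, with a median of 1.498. The gene at 2-fold was the nuclear effector RBPJ, with 16 and 7 (2.62-fold, 1.10 to 8.11). The ligand gene DLL1 had 19 and 16 at its start (1.45-fold, 0.71 to 3.05).

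All 5 listed blood and endothelial genes reached 2-fold, with a median of 2.62, beside 48.6% and 1.94 over all genes with a symbol. ETS1 had 26 and 10 in its first intron (3.03-fold, 1.497 to 7.46), the lymphatic receptor FLT4 13 and 3 (4.32-fold, 1.47 to 29.3), RUNX1 16 and 7 (2.62-fold, 1.10 to 8.11), TIE1 11 and 6 (2.12-fold, 0.77 to 7.45) and GATA2 at its start 12 and 6 (2.29-fold, 0.86 to 8.02). ETS1, FLT4 and RUNX1 had intervals above 1, as had 29.7% of all genes with a symbol. The 19 other genes of this list had no listed region. No gene of the 13 on the mesonephros list was listed.

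The fibroblast and mesenchymal list had 8 listed members, 3 at 2-fold, with a median of 1.63. PDGFRA, the platelet-derived growth factor receptor of mesenchyme, had 36 and 19 (2.28-fold, 1.31 to 4.32). Early lineage regulators had 8 listed, 2 at 2-fold, with a median of 1.39. LMX1A had a called region of 14 and 4 (3.70-fold, 1.36 to 18.0), and GATA5 had 27 and 24 (1.38-fold, 0.77 to 2.51). The protocadherin list of 11 genes, which leaves out PCDH12, had 6 listed, 2 at 2-fold, with a median of 1.69. Its called pair, PCDH17 (16 and 5) and PCDH15 (16 and 8), lay 173119 and 58575 bp from their starts. PCDH12, given above, had 15 and 6 in its nearest region (2.82-fold, 1.13 to 9.71), which was called. The 2 listed HOX genes, HOXB1 (9 and 8) and HOXB9 (7 and 7), were near input.

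Among H3K4 methylation enzymes and demethylases, 6 were listed, 2 of them at 2-fold, with a median of 1.67. KDM1B, given above, had the highest fold. KDM5A, a demethylase of trimethylated H3K4, had 4 and 2 reads in the region nearest its start and 27 and 12 in a broad region around it (2.66-fold, 1.36 to 6.02), which was not called. Of the subunits and methyltransferases of the SET1 and MLL complexes, SETD1B had 8 and 7 (1.39-fold, 0.45 to 4.57), ASH2L 5 and 3 (1.85-fold, 0.40 to 13.3) and WDR5 6 and 6 (1.23-fold, 0.33 to 4.62). At these read numbers a difference from input could not be detected for SETD1B, ASH2L or WDR5.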

How the data were processed

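Per the submitters' processing notes, CASAVA 1.8, FastQC, BWA and MACS2 were used with the build galGal4; the step that counted reads and the settings are not given in the sources used here. Per the file headers, the authors deposited for each region a read count, an RPM value, a fold enrichment (a ratio, IP RPM divided by input RPM) and a log2 fold change between populations, which was not used. As the values show, the authors added 1 read to each count before scaling it to RPM, by a library total of 20.24 M (megareads) for the PGC IP and 24.98 M for the PGC input, and 100% of counts were recovered within 0.05 reads.

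Rows with the same coordinates were collapsed (90 and 55 repeats within the 2 tables, 1066 regions in both). Intervals are exact binomial (Clopper-Pearson) 95% intervals on the raw IP and input counts, turned into a ratio of library shares; whether PCR duplicates were removed is not given in the sources used here, so intervals and floors cover counting error only. The floor for an input of 0 is 3 reads in that library. No test was made, since each group has 1 library. Python 3.11.15, pandas 2.3.3, scipy 1.17.1 and matplotlib 3.10.9 were used, and the interval was tested on simulated counts. Genes are the authors' closest genes. Named regions are the 8 with a symbol ranked highest by lower end, fold, IP RPM and IP RPM per kb (at least 400 bp), the 8 genes with most called regions, up to 3 members of each list, and 22 genes always looked up, of which 12 had no listed region; some regions that these rules name are not reported here. The members and lists were chosen with earlier results of these data known. Alternatives are under the processing section. Sequences were not used here, as no genome of the build was at hand.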

Additional observations from a re-analysis of the deposited data

How the results depend on the processing

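No paired analysis was possible because each group has 1 library and no test was made. The count of regions at 2-fold (4294) was 2213 with at least 20 reads per region, 2074 with the libraries scaled to the median of regions not called, and 2701 and 2594 in the table with ESC or SSC alone. The count at 4-fold (731) was 281 with at least 20 reads, 173 under that scaling, 418 in the table with SSC, and 40 with 5 reads added in place of 1. The number of regions whose interval began above 1 (2835) was 1424 with a 99% interval and 1780 and 1865 in the table with ESC or SSC; fewer regions enter each table. The median fold of called regions (3.00) was 3.13 with 0.5 reads added, 2.35 with 5, 2.82 with at least 20 reads, 2.02 under the scaling, and 3.20 with either the ESC or the SSC input in place of the PGC input. For regions not called (1.48) it was 1.39 with 5 reads added, 1.36 with at least 20 reads, 1.46 with inputs at a floor of 3, 1 under the scaling, by construction, 1.54 and 1.41 in the table with ESC or SSC, and 1.64 and 2.11 with the ESC or SSC input. The share of called regions within 1 kb of a start (3.82%) was 1.65% within 500 bp and 9.23% within 2 kb. Leaving out the 5_8S_rRNA stretch or the regions of 50 or more input reads, both chosen after seeing the data as were the other inputs, left these counts within 1.5 times and moved no median. Taking each gene's highest region can only keep or raise a count. The list members at 2-fold went from 64 to 90 of 147. Somatic gonad was then at 7, early lineage at 6, BMP and TGF-beta at 8, Wnt at 7, pluripotency at 5 and Notch at 3. The mean over a gene's regions gave 75, and 3 for Notch. The same counts over all genes with a symbol are not given here. Of 130 named values, 11 moved beyond their interval under the scaling and 0 with another added count. GC content and regions per Mb were not run.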

Other observations

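The PGC input could be set beside the inputs of the other populations at the same regions. At called regions it held 1.16 times (1.13 to 1.19) the reads per library total of the ESC input and 1.13 times (1.10 to 1.15) those of the SSC input. At regions listed through SSC peaks the ratio of PGC to SSC input was 1.49 (1.46 to 1.52), and at those listed through ESC peaks the ratio of PGC to ESC input was 1.11 (1.08 to 1.13). Each peak set was chosen against its own population's input.

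Chromosome 24 had the highest share of called regions among chromosomes with at least 50 listed regions, 51 of 85, and chromosome Z the lowest, 61 of 332 (18.4%), beside 19 of 97 (19.6%) on chromosome 28. EBF1, a regulator of B cells and mesenchyme, had 9 listed regions: 5 at 3751 to 10389 bp from its start held 6 to 25 IP and 4 to 21 input reads with 0 called, and 3 of the 4 at 90599 bp or more were called, with 12 to 18 IP and 3 to 7 input reads. These chromosomes and EBF1 were chosen after their values were seen. Over all genes with a symbol, 36.4% of regions were called at 1 to 10 kb. The share was 63.9% at 50 to 100 kb and 69.9% beyond 100 kb, so it rose with distance in general.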
